A study of Mus musculus with 6 samples.

Results

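The 10 genes described here encode structural proteins of elastic fibres and of the microfibrils that scaffold them: Eln, Fbn1, Fbn2, Mfap2, Mfap4, Mfap5, Fbln1, Fbln2, Fbln5 and Ltbp2. They were chosen by symbol, with earlier results of these data known, and all 10 were found among the 23930 amplicons of the deposited table. RNA came from humerus shafts of E16.5 mouse embryos. The 3 control samples carried Stat3C/+, which the labels call wild type, without a Cre driver. The 3 knockout samples carried Prrx1Cre; Stat3C/C. Both groups thus shared at least 1 Stat3C allele, and they differed in the driver as well as in Stat3. Prrx1Cre acts in limb bud mesenchyme and its descendants, which include bone, cartilage, tendon and connective tissue but not muscle fibres, endothelium or blood cells. The series states as its purpose the search for genes expressed differently in long bone. The labels do not say whether replicates were separate embryos, so the p-values reflect only how far these samples scatter, some of which could be technical.

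Elastic fibres give tissues recoil. Their core is elastin, secreted as soluble tropoelastin and cross-linked by lysyl oxidases, and it is laid down on bundles of fibrillin microfibrils with the help of fibulins. Microfibrils also hold latent TGF-beta through the latent TGF-beta binding proteins. In a developing limb, such fibres are known from perichondrium and periosteum, tendon, fascia and vessel walls rather than from mineralised matrix.

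Expression was measured with an Ion AmpliSeq panel, which reads 1 short amplicon per gene, in RPM (reads at the amplicon, scaled to the library's total so that columns can be compared). Amplicons differ in how well they amplify, so RPM values are compared between samples for 1 gene and not between genes. Depths recovered from the deposited values ranged from 9126493 to 13376550 reads, which put 339 to 11548 reads behind each member value in a library. Such reads have no molecular identifiers, so their number speaks to counting error only. Stat3 itself was read at 211, 201 and 211 RPM in controls and at 208, 200.5 and 170.1 RPM in knockouts (limma log2 fold change -0.11 ± 0.08 SE, adjusted p = 0.380). No source used here places that amplicon inside or outside the deleted part, so it checks nothing about the labels. Among the osteoblast markers, Col1a1 was at 28711 ± 2067 RPM and Ibsp at 4328 ± 319 RPM in controls (SD, n = 3), and the cartilage marker Col2a1 was at 136 ± 2.65 RPM, so defining markers of the labelled tissue were present.

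Across the table, 2142 of 12846 amplicons tested passed the threshold (limma, adjusted p under 0.05), which is 16.7% of them. Of these, 733 were higher (5.71% of those tested) and 1409 lower (11.0%) in the knockout. Of the calls, 34.2% were higher on the deposited scale, 50.4% with TMM factors, 54.3% with median-of-ratios factors, 52.7% with quantile normalization, 53.3% with edgeR and 56.3% with DESeq2. The number of calls was 1229 without control replicate 1, 1173 without control replicate 2 and 1322 without knockout replicate 2.

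Upstream sequences of the fibulin family are shown because its genes gave different results in this comparison: Fbln1 and Fbln5 did not pass the test, while Efemp2 (fibulin-4), a relative outside the 10 members, was lower. The RefSeq promoter table (GRCm38.p6) held entries for 6 of the 10 members, in 9 windows, and none for Eln, Fbn2, Mfap4 and Mfap5. Each sequence is the 250 bases before a transcription start, 5′ to 3′ on the gene's strand, and only windows clear of GENCODE M21 exons are printed, which leaves out the Fbln2 window. They come from chr15:85205699-85205948 (plus strand) for Fbln1, chr12:101819120-101819369 (minus strand) for Fbln5 and chr19:5473696-5473945 (plus strand) for Efemp2. Capitals mark matches to the GC box GGGCGG, on either strand.
Fbln1: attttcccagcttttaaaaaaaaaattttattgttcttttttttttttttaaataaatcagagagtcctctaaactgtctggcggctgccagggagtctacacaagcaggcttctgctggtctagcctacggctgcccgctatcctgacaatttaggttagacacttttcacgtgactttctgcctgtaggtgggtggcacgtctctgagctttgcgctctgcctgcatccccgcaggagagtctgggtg
Fbln5: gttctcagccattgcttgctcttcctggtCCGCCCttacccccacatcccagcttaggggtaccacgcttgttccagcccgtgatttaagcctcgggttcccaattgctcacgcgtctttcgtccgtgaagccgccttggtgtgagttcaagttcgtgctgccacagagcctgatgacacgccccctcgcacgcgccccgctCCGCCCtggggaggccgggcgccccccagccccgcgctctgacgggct
Efemp2: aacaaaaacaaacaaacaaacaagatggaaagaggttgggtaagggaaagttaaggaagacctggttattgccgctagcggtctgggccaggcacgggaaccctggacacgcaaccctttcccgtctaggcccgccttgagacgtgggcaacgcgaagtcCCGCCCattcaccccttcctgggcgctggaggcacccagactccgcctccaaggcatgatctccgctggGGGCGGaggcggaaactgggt
The matches in the Fbln5 window begin 221 and 48 bases before the start, and those in the Efemp2 window 90 and 21 bases before it. The printed Fbln1 window has no match, but a second Fbln1 window, not printed because it overlaps an exon, holds 1.

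Over all 9 member windows, 6 held GGGCGG, against 32.7% of the 32851 windows in the table. The Fbln1 windows overlap each other, and only 2 of the 9 were clear of exons. The motif TTCNNNGAA, the palindrome bound by STAT dimers, was in 0 of the 9 member windows and in 7.02% of all windows. TATAAA and TGANTCA, the TATA box and the AP-1 site, were also in 0 of the 9, against 12.4% and 6.75% of all windows. Motifs were searched on both strands and counted separately, and overlaps between them were not removed. These counts say only which letters stand in the 250 bases.

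Elastin, a fibulin and a small microfibril glycoprotein rose in the knockout bone, and the other 7 members did not pass the test. Eln, Fbln2 and Mfap5 were each higher in all 3 knockout libraries than in any control. The 3 rises were of similar size, between 0.35 and 0.44 on the log2(RPM + 1) scale. None of the 10 members passed as lower. The count of 3 of 10 called higher stands against 5.71% of all amplicons tested. The 10 were chosen with earlier results of these data known, so this contrast cannot show an excess. The median log2 fold change of the 10 was 0.094, beside -0.061 for all amplicons tested, and all 10 passed the filter of a mean of at least 1 RPM. No test was made of the group as such.

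**Figure D1:**
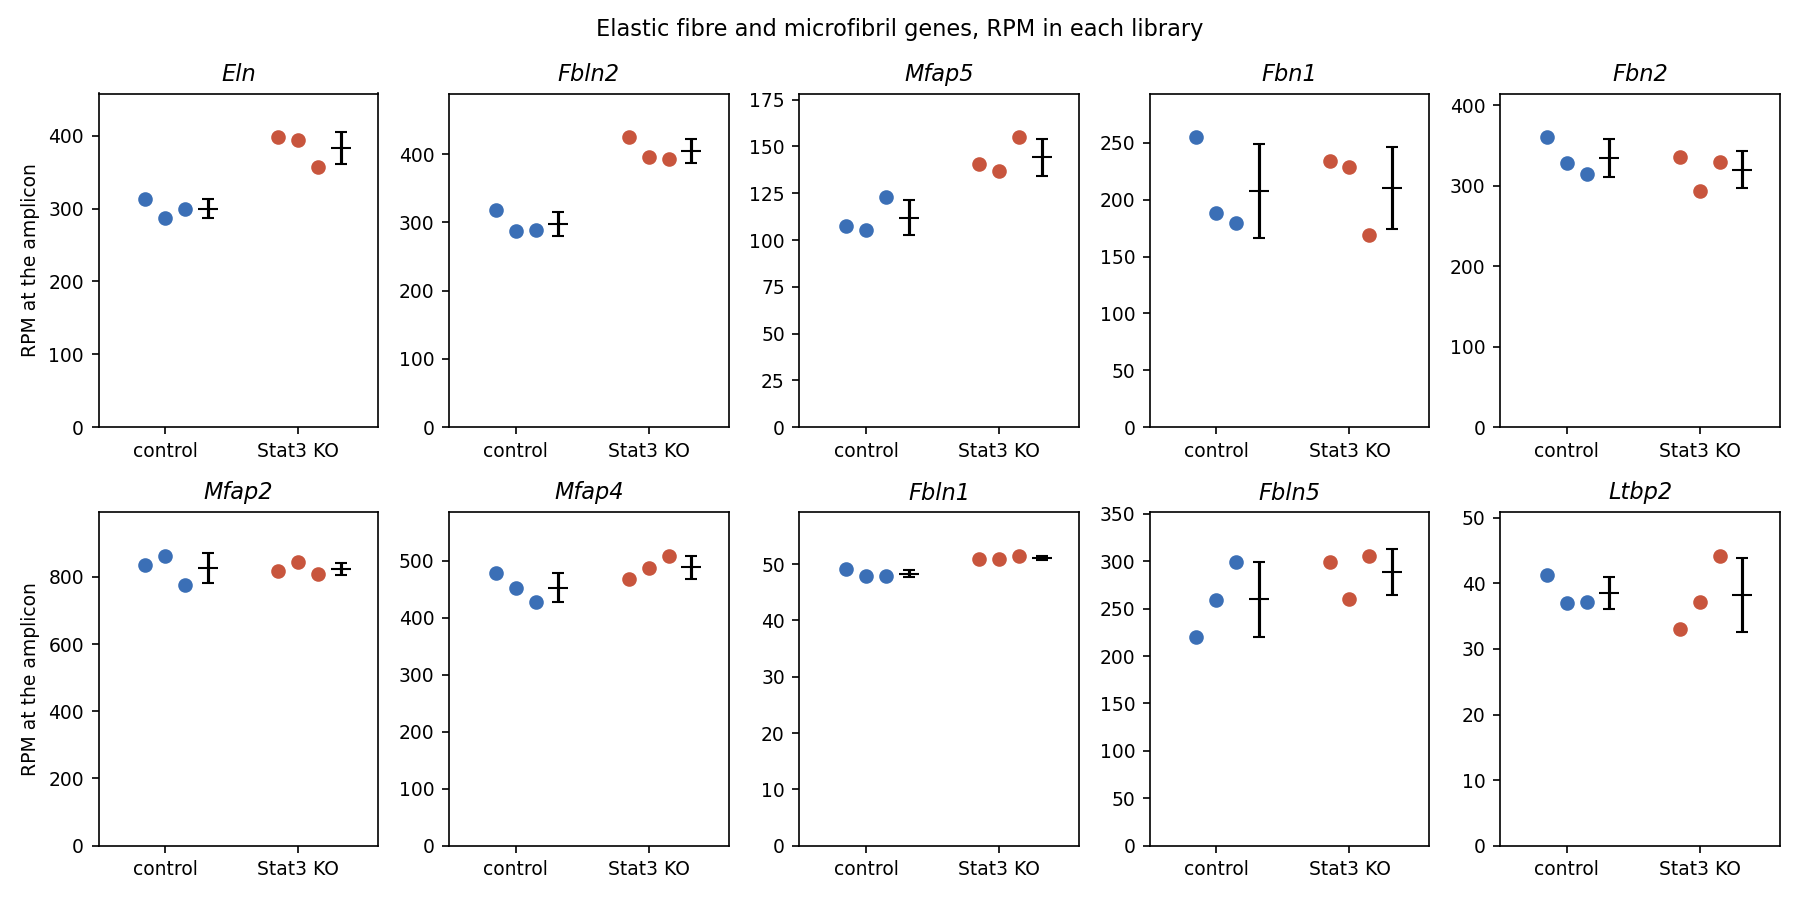
RPM at the amplicon of each of the 10 genes (vertical axes start at 0) in 3 control libraries (blue points) and 3 Stat3 knockout libraries (red points), replicates 1 to 3 from left to right, with the mean and SD of each group in black. In the panels of Eln, Fbln2 and Mfap5 every knockout library lies above every control, while the groups of Fbn1, Fbn2, Mfap2, Mfap4, Fbln5 and Ltbp2 overlap.

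Eln (chr5:134702593-134747323, minus strand, GRCm38, a gene position from GENCODE M21, as are those below) encodes tropoelastin, the monomer of the elastic core. Its amplicon, AMPLEln_1_1.5608, gave 313, 287 and 299 RPM in control replicates 1 to 3 and 398, 394 and 357 RPM in knockout replicates 1 to 3. The groups did not overlap, and the lowest knockout library was above the highest control. The means were 299.7 ± 13.0 and 383 ± 22.5 RPM (SD, n = 3 each), with a log2 fold change of 0.35 ± 0.07 (SE, limma adjusted p = 0.00251). On the deposited scale the knockout mean was 1.28 times the control mean. No source used here places an amplicon within its gene, so values stand for 1 target and not for every splice form.

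The fibrillins form the microfibril backbone, Fbn1 throughout life and Fbn2 mainly in the embryo. Fbn1 (chr2:125300594-125507993, minus strand) was at 255, 189 and 179.9 RPM in controls and at 234, 229 and 169 RPM in knockouts. Control replicate 1 was the highest and knockout replicate 3 the lowest of the 6 libraries, so the groups overlapped over most of their range. The log2 fold change was 0.020, with a 95% confidence interval from -0.22 to 0.26 (limma adjusted p = 0.929). Its sign turned when single libraries were left out, from -0.075 to 0.18. Fbn2 (chr18:58008623-58210487, minus strand) was at 361, 329 and 315 RPM in controls and at 336, 294 and 330.1 RPM in knockouts. These groups overlapped too, with a log2 fold change of -0.065 (interval -0.23 to 0.097, limma adjusted p = 0.616). The Eln estimate of 0.35, whose own interval was 0.20 to 0.51, lies outside both fibrillin intervals. The Eln and Fbn1 intervals overlap, however, and setting intervals side by side does not test whether genes differ.

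Mfap2 and Mfap5 encode the microfibril-associated glycoproteins MAGP-1 and MAGP-2, a pair of small related proteins that bind fibrillin, and Mfap4 encodes a fibrinogen-related protein that binds microfibrils and elastin. Mfap5 (chr6:122505845-122529290, plus strand) was at 108, 106 and 123 RPM in controls and at 141, 137 and 155 RPM in knockouts. All knockout libraries were above all controls, although control replicate 3 came near the lowest of them. The means were 112 ± 9.38 and 144 ± 9.67 RPM (SD, n = 3 each), and the log2 fold change was 0.36 ± 0.09 (SE, limma adjusted p = 0.00621). Its relative Mfap2 (chr4:141010418-141015984, plus strand) was at 835, 863 and 776 RPM in controls and at 816, 843 and 809 RPM in knockouts. The knockout libraries all lay inside the range of the controls. Its log2 fold change was -0.0030 (interval -0.15 to 0.14, limma adjusted p = 0.983), so a change as large as the Mfap5 estimate lies outside its interval. Mfap4 (chr11:61485431-61488900, plus strand) was at 478, 453 and 428 RPM in controls and at 469, 487 and 509.5 RPM in knockouts. Its groups overlapped where control replicate 1 lay above knockout replicate 1, and the log2 fold change was 0.11 (interval -0.041 to 0.26, limma adjusted p = 0.322).

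The fibulins link elastin to microfibrils and to other matrix proteins. Fbln2, which binds fibrillin, elastin and versican, had the largest fold change of the 10 members. Fbln2 (chr6:91212455-91272540, plus strand) was at 319, 287 and 288 RPM in controls and at 425, 396 and 392 RPM in knockouts, with no overlap. The means were 298 ± 17.7 and 404 ± 18.0 RPM (SD, n = 3 each), and the log2 fold change was 0.44 ± 0.07 (SE, limma adjusted p = 0.000325). The knockout mean was 1.36 times the control mean. This call held in every alternative run.

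Fbln5 encodes a fibulin that elastic fibre assembly requires, and Fbln1 one that is found in elastic cores and basement membranes. Fbln5 (chr12:101746565-101819055, minus strand) was at 221, 259 and 299.8 RPM in controls and at 299, 261 and 306 RPM in knockouts. The controls alone spanned most of that range, and the log2 fold change of 0.16 (interval -0.036 to 0.35) did not pass (limma adjusted p = 0.262). That value was 0.046 without control replicate 1 and 0.27 without control replicate 3 (adjusted p = 0.797 and 0.0524). Fbln1 (chr15:85205949-85286535, plus strand) was at 49.1, 47.8 and 48.0 RPM in controls and at 50.9, 50.8 and 51.5 RPM in knockouts. Its groups did not overlap, yet they differed by a log2 fold change of only 0.080 (interval -0.11 to 0.27, limma adjusted p = 0.599). With Fbln1 counted, 4 of the 10 members had knockout values entirely above the controls. Over all amplicons tested, 11.9% did and 21.9% lay entirely below (33.8% in either direction). This contrast too is limited by how the 10 were chosen.

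Ltbp2 encodes the latent TGF-beta binding protein that does not bind latent TGF-beta itself but attaches to fibrillin microfibrils. Ltbp2 (chr12:84783212-84876532, minus strand) was at 41.3, 37.0 and 37.1 RPM in controls and at 33.1, 37.1 and 44.3 RPM in knockouts. The knockout libraries held both the lowest and the highest value. The log2 fold change was -0.019 (interval -0.25 to 0.21, limma adjusted p = 0.929). Together the 10 amplicons took 2795 to 2979 RPM in controls and 3124 to 3202 RPM in knockouts. These sums include the called members Eln, Fbln2 and Mfap5 and were not recomputed without them.

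Ratios of a pair of amplicons within 1 library do not move with the scaling of that library. The log2 ratio of Mfap5 to Mfap2 was -2.94, -3.02 and -2.65 in controls and -2.53, -2.62 and -2.38 in knockouts, without overlap. The log2 ratio of Eln to Fbn1 was 0.29, 0.60 and 0.73 in controls and 0.76, 0.78 and 1.08 in knockouts, also without overlap. The mean ratios differed by 0.37 and 0.33, each with p = 0.1 in an exact two-sided permutation test, the smallest p that 3 against 3 allows (adjusted p = 0.15 over 3 ratios). Both ratios set a member called higher against one that did not pass, so they are not independent of those calls. The difference in the Eln to Fbn1 ratio was 0.21 without control replicate 1. The log2 ratio of Fbn2 to Fbn1, the embryonic to the lifelong fibrillin, was 0.50, 0.80 and 0.81 in controls and 0.52, 0.36 and 0.96 in knockouts. That ratio overlapped, with a difference of -0.085 (exact permutation p = 0.9, adjusted p = 0.9), which turned to 0.041 without knockout replicate 2.

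The other genes of elastic fibre assembly were mostly not called, and on the deposited scale 5 of the 6 that were called were lower. Of 28 listed genes 27 were found in the table and 26 tested. Of these 26, 1 was higher, 5 were lower and 20 did not pass, with p-values adjusted over the whole table. Over the whole table, 5.71% of amplicons tested were called higher and 11.0% lower, 16.7% in either direction. With TMM or median-of-ratios scaling, edgeR or DESeq2, the list had 1 higher and 3 lower. The median log2 fold change of the 26 was -0.030, beside -0.061 for all amplicons. The higher gene was Ltbp4, a latent TGF-beta binding protein that also takes part in elastin assembly. The lower genes were the lysyl oxidase family members Lox, Loxl1 and Loxl4, the fibulin Efemp2 and the latent TGF-beta binding protein Ltbp1. Within the fibulin family, Fbln2 and Efemp2 were called in opposite directions. Among the latent TGF-beta binding proteins, Ltbp4 was higher and Ltbp1 lower, but the Ltbp1 call was lost in 13 of 19 alternatives, TMM, edgeR and DESeq2 among them.

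**Figure D2:**
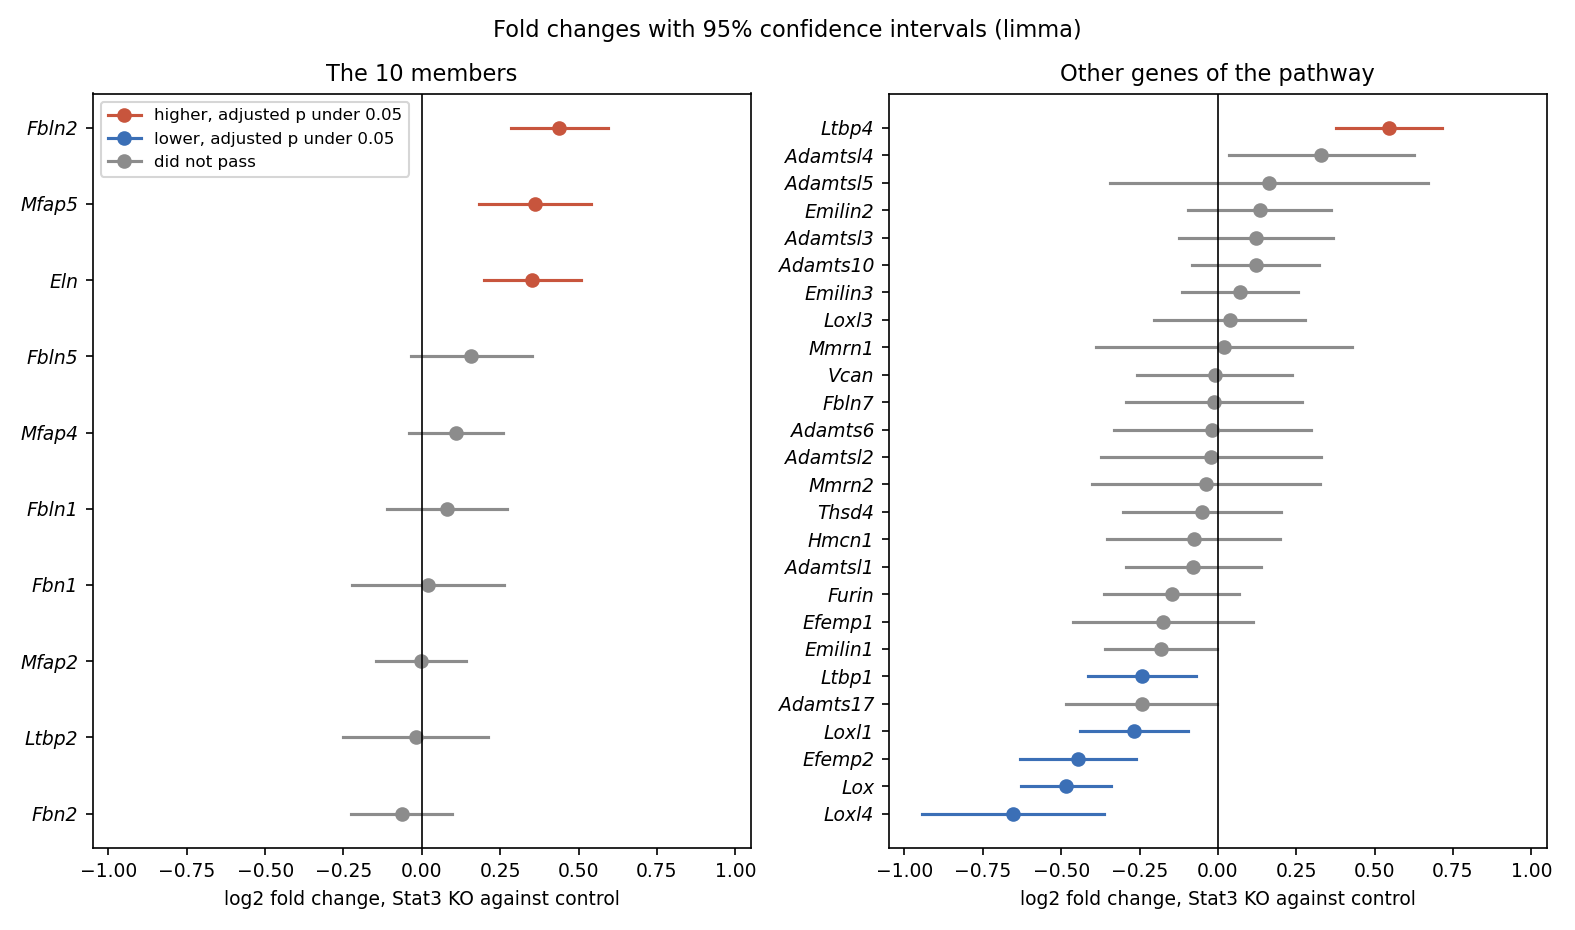
Log2 fold changes (knockout against control, on the log2(RPM + 1) scale) with 95% confidence intervals from limma for the 10 members (left) and for the 26 tested genes of the wider pathway (right), red where higher and blue where lower at an adjusted p under 0.05, grey where the test was not passed. Fbln2, Mfap5 and Eln have the highest fold changes on the left, though the interval of each overlaps that of Fbln5. Ltbp4 and Loxl4 mark the ends on the right at 0.55 and -0.65.

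Lox, the principal cross-linking enzyme of elastin and collagen, was at 786, 759 and 729 RPM in controls and at 529, 534 and 560.3 RPM in knockouts (log2 fold change -0.48 ± 0.07 SE, limma adjusted p = 5.39e-05). No knockout library came near the controls. Efemp2, which brings lysyl oxidase to tropoelastin, was at 127, 113 and 128 RPM in controls and at 94.1, 94.1 and 81.1 RPM in knockouts (-0.45 ± 0.09, limma adjusted p = 0.00164). Ltbp4 was at 181, 177 and 189 RPM in controls and at 299, 260.2 and 244 RPM in knockouts (0.55 ± 0.08, limma adjusted p = 9.19e-05). Loxl4 was at 14.8, 14.4 and 12.6 RPM in controls and at 8.64, 8.99 and 7.77 RPM in knockouts (-0.65 ± 0.14, limma adjusted p = 0.00279). In none of these genes did the groups overlap, and the calls of Lox, Efemp2, Ltbp4 and Loxl4 held in every alternative run.

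Loxl1, the lysyl oxidase most tied to elastin, was at 133, 139 and 122 RPM in controls and at 113, 105 and 109 RPM in knockouts (log2 fold change -0.27, limma adjusted p = 0.0306). Ltbp1 was at 107, 118 and 119 RPM in controls and at 98.2, 98.1 and 93.0 RPM in knockouts (-0.24, limma adjusted p = 0.0485). These were the 2 least certain calls: with TMM scaling both were lost (adjusted p = 0.127 for Ltbp1 and 0.0808 for Loxl1), and that of Loxl1 was lost in 9 of 19 alternatives in all. By library, Ltbp1 was lost without control replicate 2 (0.162), control replicate 3 (0.121) and knockout replicates 1, 2 and 3 (0.0689, 0.101 and 0.117). Loxl1 was lost without control replicates 1 and 2 (0.0864 and 0.149) and knockout replicates 2 and 3 (0.119 and 0.0518).

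Of the genes set for description whatever their result, Efemp1 (fibulin-3) had a log2 fold change of -0.18 (interval -0.46 to 0.11) and Emilin1, a glycoprotein of the elastin and microfibril interface, of -0.18 (interval -0.36 to -0.0018), and neither passed (limma adjusted p = 0.414 and 0.156). Ltbp3 had at most 0.258 RPM in any library and was not tested. Loxl2 was not found in the table under its symbol.

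Within libraries, 3 more log2 ratios were looked at after the values were seen and are given without a test. Eln to Lox went from -1.34 ± 0.06 in controls to -0.50 ± 0.13 in knockouts (SD, n = 3 each). Fbln2 to Efemp2 went from 1.28 ± 0.10 to 2.16 ± 0.10. Ltbp4 to Ltbp1 went from 0.67 ± 0.08 to 1.46 ± 0.12. Each pairs a gene called higher with one called lower, so the separation of the groups follows from that choice.

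**Figure D3:**
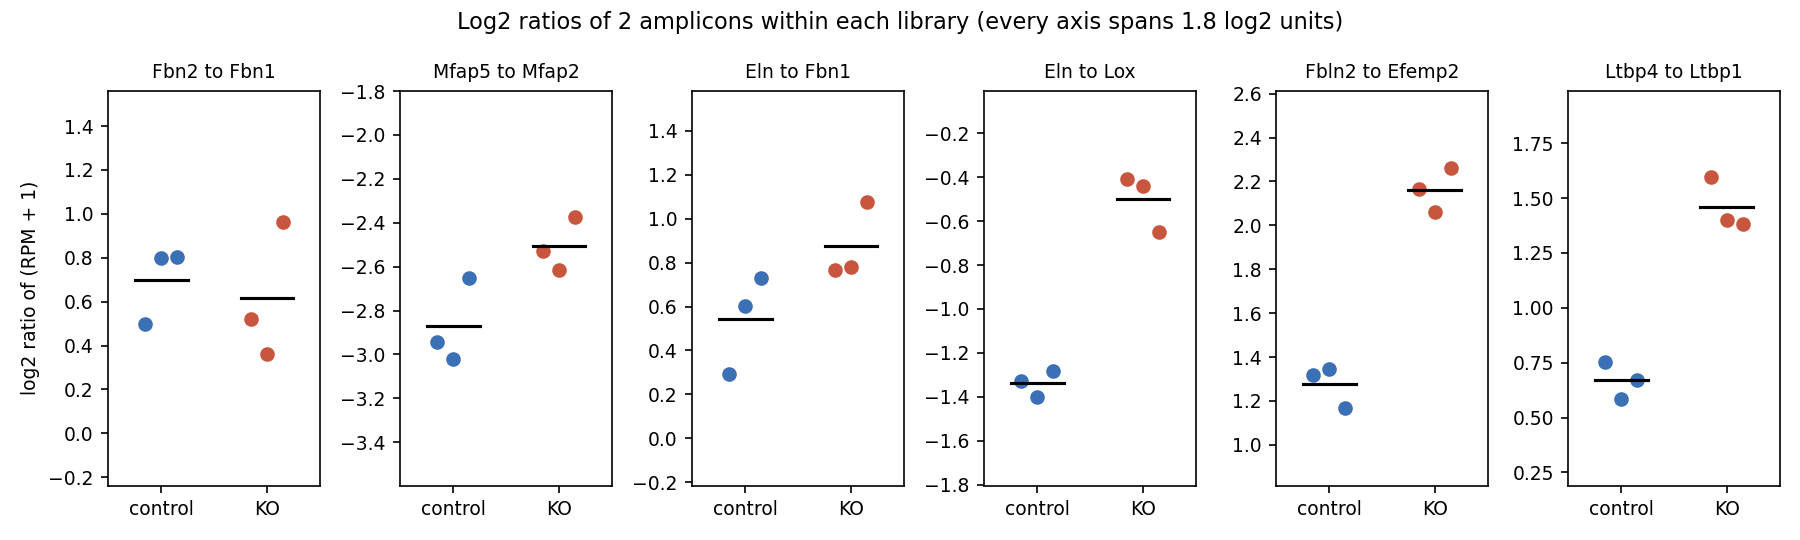
Log2 ratios of RPM + 1 at a pair of amplicons in each of 3 control (blue) and 3 knockout (red) libraries, with group means as black bars; each vertical axis spans 1.8 log2 units. The Fbn2 to Fbn1 ratio overlaps between the groups. Those of Mfap5 to Mfap2 and Eln to Fbn1 do not, and each sets a member called higher against one that did not pass. The 3 panels on the right pair genes picked for opposite calls, so their separation follows from that choice.

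Several cell types of the humerus shaft make these proteins, and in bulk RNA fewer cells of a type and less RNA per cell cannot be told apart. The counts for each marker list below stand beside 5.71% called higher and 11.0% called lower over all amplicons tested. Tendon markers were higher in 2 and lower in 1 of 8 tested. Scx, the tendon transcription factor, was at 163 ± 4.95 and 223 ± 8.19 RPM and Kera, a keratan sulfate proteoglycan, at 214 ± 14.9 and 173 ± 5.54 RPM (SD, n = 3 each). The other higher marker was Tnmd, a tendon membrane protein, at 1502 ± 101.2 and 2257 ± 200.1 RPM. The 8 tendon markers summed to 3892 to 4068 RPM in controls and 4590 to 5143 RPM in knockouts, but without Tnmd the other 7 summed to 2436 to 2618 and 2494 to 2750 RPM, which overlap. Markers of perichondrium and loose connective tissue had 0 higher and 4 lower of 10, with sums of 2629 to 2922 RPM and 2798 to 3018 RPM. With median-of-ratios scaling that list had 1 higher and 2 lower, and with DESeq2 2 higher and 1 lower. Without control replicate 1 it had 0 higher and 1 lower, and with limma without trend 0 of each. In that list, Pdgfra, Ly6a, Thy1 and Lum were lower (log2 fold changes -0.39, -0.43, -0.32 and -0.31). Col14a1 and Osr1 (-0.21 and -0.26) did not pass, nor did Dpt, Cd34, Osr2 and Dcn (0.15, 0.16, 0.13 and 0.19). Dcn, at 1493 ± 170 and 1696 ± 102 RPM (SD, n = 3 each), was the largest part of that list's sums, which were not recomputed without it.

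Smooth muscle and pericyte markers had 0 higher and 1 lower of 9 (Des, which skeletal muscle also expresses), with sums of 4517 to 4870 RPM in controls and 4232 to 4629 RPM in knockouts, and with TMM scaling 1 higher and 0 lower. The smooth muscle actin gene Acta2, the largest part of these sums, was at 3072 ± 105 and 3051 ± 122 RPM. Of the other markers that did not pass, Cnn1, Myh11 and Mylk had log2 fold changes of 0.47, 0.21 and 0.0091. Those of Rgs5, Cspg4, Notch3 and Pdgfrb were -0.19, -0.24, -0.15 and -0.025. Endothelial markers had 0 higher and 2 lower of 9, with sums of 743 to 783 and 730 to 765 RPM, and with TMM scaling 1 higher and 2 lower. Skeletal muscle markers had 0 higher and 3 lower of 10 (14719 to 15230 and 13435 to 14384 RPM), osteoblast markers 0 and 6 of 8 (46781 to 50669 and 40918 to 45405 RPM), and cartilage markers 0 and 6 of 9 (486 to 503 and 377 to 413 RPM). The count of lower cartilage markers was 3 with median-of-ratios scaling, quantile normalization and DESeq2, 4 with TMM and edgeR, and 3 without control replicate 2 or knockout replicate 2. Epidermal markers were low, with 2 higher and 0 lower of 4 tested and sums over 8 amplicons of 10.6 to 11.3 RPM in controls and 22.0 to 27.0 RPM in knockouts. Neutrophil markers had 0 higher and 5 lower of 5 tested (89.2 to 90.6 and 37.8 to 41.7 RPM). No marker of these lists that was found in the table was at 0 in all libraries. The part of these cell types in the values of Eln, Fbln2, Mfap5, Lox and Efemp2 was not tested.

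**Figure D4:**
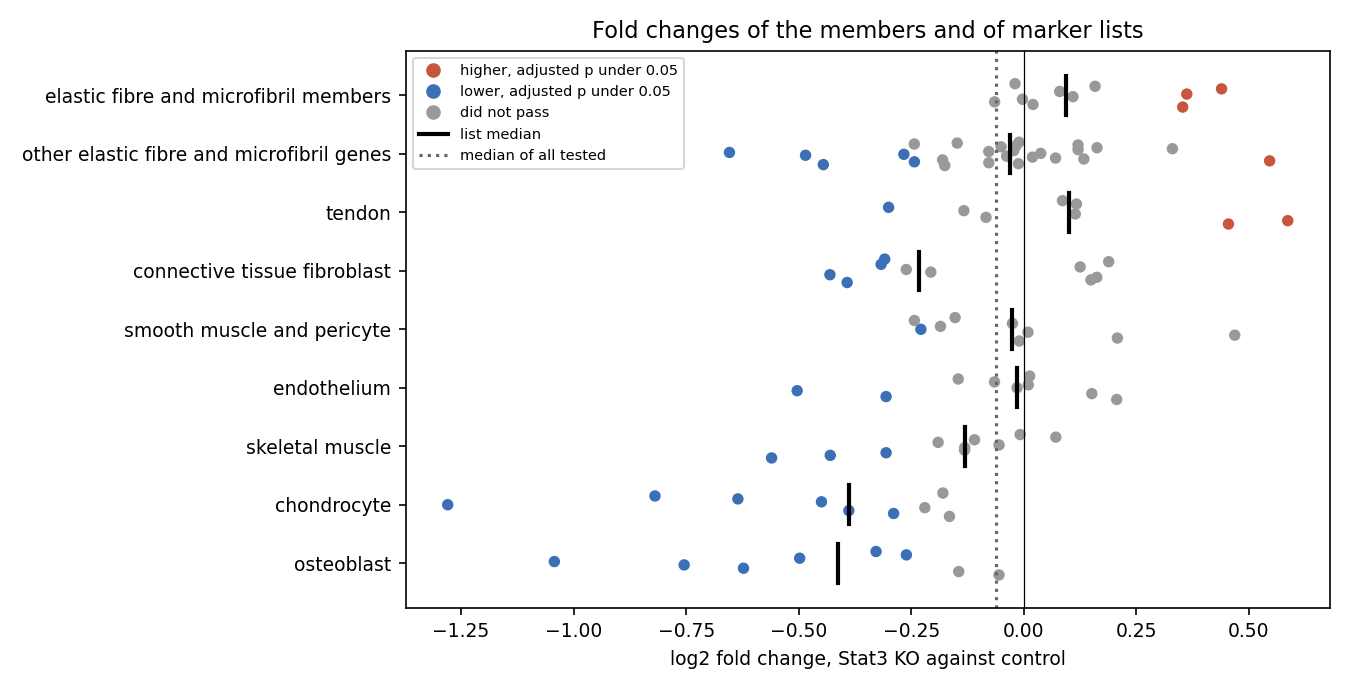
Log2 fold changes (knockout against control) of single genes, as points, in the 10 members, the wider pathway and 7 marker lists, coloured by the limma call, with each list's median as a black bar and the median of all amplicons tested (-0.061) as a dotted line. The members reach from -0.065 to 0.44, the tendon markers from -0.30 to 0.59, and the osteoblast and cartilage markers all lie below 0.

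The 3 member calls were made by limma with a variance trend, and edgeR and DESeq2 on the recovered reads called the same 3. Without the trend, Fbln2 remained called, while Eln (adjusted p = 0.0555) and Mfap5 (0.0654) did not, at the same fold changes.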

How the data were processed

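The authors deposited RPM values (reads scaled to the total of the library) for 23930 amplicons in 6 columns, 1 per sample. Per the labels' protocols, RNA was extracted with Trizol, and an Ion AmpliSeq transcriptome panel for mouse was run on an Ion Chef. The aligner, the counter and the genome build were not given in the sources used here. Values were whole multiples of 1 step per column, and 100% of those above 0 gave whole reads within 0.1 read. In the table, 27 symbols had been turned into dates and were read back from the amplicon names. Within a group, libraries differed beyond counting noise (chi-square per degree of freedom 4.54 to 7.80, and 15.2 to 20.7 between groups), so each counted as 1 replicate.

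The main test was limma 3.58.1 (R 4.3.3, empirical Bayes with trend) on log2(RPM + 1) for amplicons averaging 1 RPM or more, two-sided, with Benjamini-Hochberg adjustment over all of them and a threshold of 0.05. Fold changes on this scale understate those of low genes. edgeR 4.0.16 and DESeq2 1.42.0 were run on the recovered reads as alternatives. The limma and edgeR steps were also run on simulated counts with the same dispersion for every amplicon. That run checks the steps only and does not bear on the calls made here. Figures used matplotlib 3.10.9.

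The genes named were the 10 members, the called genes of the wider pathway list, and Efemp1, Efemp2, Emilin1, Ltbp1, Ltbp3, Ltbp4, Lox and Loxl1 whatever their result. Called genes of the protease and TGF-beta lists were added, except 1 item that is not reported here. Markers were named after their values were seen. The members and lists were chosen with earlier results of these data known. Ctgf was matched through its synonym Ccn2. Gene positions are from GENCODE M21 (GRCm38), matched by symbol.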

Additional observations from a re-analysis of the deposited data

How the results depend on the processing

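The 10 fold changes and the counts were recomputed under other pseudocounts, filters, scalings, variance models and tests, with the replicate block and without each library. The 3 tested ratios were recomputed under the other pseudocounts, with the block and without each library. The count of 3 members called higher became 1 (Fbln2) with limma without trend and was 3 in the other 18 alternatives. Calls over all amplicons fell from 2142 to 995 without trend and to 1392 with no filter on low values, and ranged from 1173 to 2019 when single libraries were left out. The difference in the log2 ratio of Fbn2 to Fbn1 ranged from -0.259 to 0.0414 when single libraries were left out. With the replicate number as a block, 2462 amplicons were called, and the member calls were the same 3. Deviations from the group means correlated at 0.0126, -0.0193 and 0.107 for the same-numbered pairs, and not every sample correlated best with its own number. The labels name no pairing or batch, and these correlations do not settle whether same-numbered samples shared one. The scalings and count tests moved the median of all fold changes by at most 0.0585. The signs of the Fbn1, Mfap2 and Ltbp2 fold changes were kept in 15, 11 and 12 of 19 alternatives, and those of the other 7 members in all 19.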

Other observations

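Among proteases that can degrade elastin, Mmp9, the gelatinase of osteoclasts and other myeloid cells, was higher in the knockout and the other 5 tested did not pass. Mmp9 was at 422, 415 and 397 RPM in controls and at 664, 696 and 653 RPM in knockouts (limma log2 fold change 0.71 ± 0.07 SE, adjusted p = 3.2e-07). The 10 osteoclast and macrophage markers, of which Mmp9 and Ctsk are also on the protease list, were higher in 5 and lower in 2, with sums of 1033 to 1123 RPM in controls and 1465 to 1484 RPM in knockouts. Without Mmp9 the other 9 summed to 637 to 701 and 788 to 823 RPM. The higher markers were Mmp9, Adgre1 (log2 fold change 0.49), Cd68 (0.48), Lyz2 (0.78) and Itgam (0.41). The lower markers were Calcr (-1.13) and Csf1r (-0.42). Acp5 (0.14), Ctsk (0.074) and Mrc1 (-0.27) did not pass. Over all amplicons tested, 5.71% were called higher and 11.0% lower. The count of higher markers was 3 without control replicate 1 or 2 or without knockout replicate 1 or 3. The part of these cells in the Mmp9 value was not tested. Mmp2, Mmp14, Ctsk, Ctsl and Ctss had log2 fold changes between -0.14 and 0.17. Mmp7 had no read in any library, and Mmp12, Elane and Prtn3 were below the filter on low values.

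Microfibrils hold TGF-beta in latent form. The ligand gene Tgfb1 was at 98.4, 103 and 108 RPM in controls and at 85.4, 74.8 and 83.7 RPM in knockouts (-0.34 ± 0.09 SE, limma adjusted p = 0.01004, 0.0701 without knockout replicate 2 and 0.0651 with limma without trend). Tgfb2 and Tgfb3 did not pass, with log2 fold changes of -0.012 and 0.0037. The TGF-beta-induced gene Pmepa1 was higher, at 0.47 (limma adjusted p = 0.00294). Tgfbi, Ctgf and Smad7 had log2 fold changes of 0.15, 0.29 and 0.115 and Skil of -0.095, and none of these passed. Whether TGF-beta output changed was not tested.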
